A study of Gallus gallus with 2 samples.

Results

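The genes described here are 10 chick genes of pluripotent epiblast and of germ cells, namely NANOG, POU5F3, SALL4, DNMT3A, DNMT3B, LIN28A, LIN28B, KIT, DAZL and DDX4. They were chosen by symbol, or by an older name such as POUV or OCT4 for POU5F3, and every probe set annotated with such a name was used. That gave 12 probe sets for 8 of the 10 genes, of 38382 probe sets and 13009 named genes in all. No probe set was listed under NANOG or POU5F3 in the annotation used here, and those genes were not analysed here. The annotation left 11037 probe sets unnamed.

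Heart forming regions (HFR) and posterior primitive streak (PPP) were excised from chick embryos at HH4 to HH4+ (HH4-5 by a second label), and the RNA of each tissue was hybridised to 1 GeneChip Chicken Genome array. All embryos had been electroporated at HH3 with pCer2.5-EGFP, in which a 2.5 kb fragment upstream of the Cerberus coding sequence drives a green fluorescent protein, and the HFR pieces were picked by that fluorescence. No unelectroporated embryos were part of the comparison. The incubation given for both tissues is about 12 h at 37.5 °C. The number of embryos behind each array and their sexes are not given in the sources used here.

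In the chick, the epiblast is the pluripotent layer from which the embryo forms. POU5F3, the bird relative of mammalian OCT4, and NANOG mark it before and during gastrulation, and SALL4 is a zinc finger factor of the same network in mouse embryonic stem cells. Primordial germ cells arise in the epiblast and at the streak stages lie mainly in front of the embryo, in the germinal crescent, from where they later travel in the blood to the gonads. DDX4 and DAZL mark these cells, KIT is a receptor on their surface, and the LIN28 proteins hold back maturation of the let-7 microRNAs.

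Values are model-based expression indices (MBEI), which are intensities on a linear scale, each deposited beside a standard error and a call of whether the probe set was detected (present, marginal or absent). The errors after ± are these model standard errors, which cover the spread among probes within 1 array. The tissues have 1 array each, which limits the precision, so nothing below was checked in replicates or carries a p-value. Differences are log2 of HFR minus PPP. A gene with several probe sets is represented by the one with the highest mean log2 MBEI. The level filter kept genes whose brighter reading was called present and was at least 70.8 MBEI, the median of the brighter reading over all probe sets. Where the dimmer reading was not called present, a fold uses that reading as it stands and is not exact. The tissues were bulk pieces, so fewer cells of a type and less RNA per cell cannot be told apart.

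Several genes that mark the tissues lay opposite to the labels, so the arrays are called HFR-labelled and PPP-labelled. CER1, the chick Cerberus gene, a secreted antagonist of Nodal, BMP and Wnt signals, read 108.3 ± 19.2 MBEI (marginal) in the HFR-labelled sample and 420.2 ± 193.3 MBEI in the PPP-labelled sample. TBXT, the T-box factor of the streak, read 7128.6 ± 80.7 and 3691.4 ± 147.1 MBEI in the HFR-labelled and the PPP-labelled sample. Of the heart field markers that passed the filter, 9 of 10 lay below 0, and so did 9 of 9 anterior endoderm markers. Of the streak markers 6 of 9 lay above 0 and 3 below, where 45.2% of all passing genes lay above 0. The streak marker FGF8 read 62.2 ± 5.8 (absent) and 282.1 ± 16.5 MBEI in that order of samples. It was chosen after its values were seen. Without the filter, 2 of 13 heart field, 0 of 9 anterior endoderm and 9 of 12 streak markers lay above 0. Of all genes 56.1% did. On the HFR-labelled array 38.4% of probe sets were called present and in the PPP-labelled sample 42.2%. The 33 poly-A spike-in probe sets present on both arrays had a median log2 difference of -1.44. Setting them equal adds the same amount to every difference, so each negative value smaller in size than this turns positive. On that scale 5970 and 17 genes were 2-fold or more higher in the HFR-labelled and the PPP-labelled sample, in place of 285 and 314. The median difference of the 7389 passing genes became 1.39 in place of -0.05. The 27 hybridisation control probe sets present on both arrays had a median log2 difference of -0.24 as deposited. All values below are on the deposited scale.

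KIT was the 1 member that differed by 2-fold or more. Of the 8 measured genes, 1 was at least 2-fold higher in the HFR-labelled sample and 0 in the PPP-labelled sample. Over all 13009 genes without a level filter, 2.54% and 2.65% were 2-fold or more higher in the HFR-labelled and the PPP-labelled sample. SALL4, DNMT3B, DDX4 and DAZL lay between 1.5-fold and 2-fold higher in the HFR-labelled sample, and DNMT3A, LIN28A and LIN28B lay within 1.5-fold. At 1.5-fold, 5 of the 8 genes were therefore higher in the HFR-labelled sample and 0 in the PPP-labelled sample, where 7.54% and 8.49% of all genes were. By direction alone, 6 of the 8 lay above 0, where 56.1% of all genes did. All but KIT were called present on both arrays, 7 of 8 genes, where 55.4% of all genes were. Of those 5, 3 are represented by a single probe set, and for SALL4 and DNMT3B the other probe set lay below 0. Of the 8 genes 6 passed the level filter, and KIT and DDX4 did so through the HFR-labelled sample alone, so the counts here are given over all 8.

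**Figure D1:**
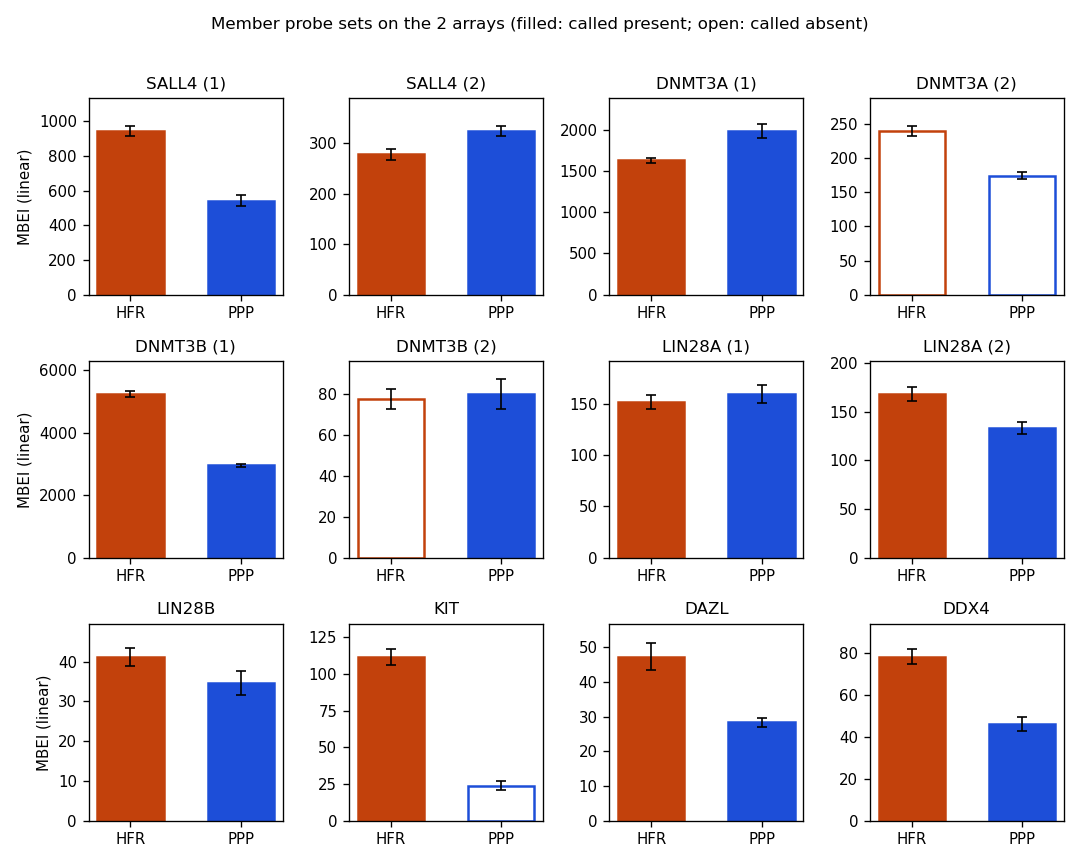
MBEI on a linear axis for the 12 member probe sets, with the HFR-labelled array at left and the PPP-labelled array at right in each panel. Bars start at 0 and their error bars are model standard errors within an array; filled bars were called present and open bars absent, and (1) marks the probe set that represents a gene with 2 probe sets. KIT read 111.5 against 23.8 MBEI. The 2 probe sets of SALL4, DNMT3A, DNMT3B and LIN28A have log2 differences on opposite sides of 0. Those of DNMT3B (2) at -0.04 (model SE 0.16) and LIN28A (1) at -0.07 (model SE 0.10) are smaller than their model errors.

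SALL4 was read by 2 probe sets, and they disagreed. The brighter one read 942.8 ± 27.7 MBEI in the HFR-labelled sample and 541.0 ± 31.4 MBEI in the PPP-labelled sample, 1.74-fold higher, with a log2 difference of 0.80 (model SE 0.09). The other read 278.7 ± 11.0 MBEI in the HFR-labelled sample and 324.5 ± 9.8 MBEI in the PPP-labelled sample, a log2 difference of -0.22 (model SE 0.07). All 4 readings were called present. The log2 differences of the 2 probe sets lay 1.02 apart. The representing probe set has an s suffix, which marks probes shared by several transcripts, and without suffixed probe sets SALL4 is represented by the other, below 0.

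The de novo DNA methyltransferases, which place new methyl groups on cytosines, went different ways by their brighter probe sets. DNMT3B read 5235.5 ± 87.9 MBEI in the HFR-labelled sample and 2951.3 ± 57.6 MBEI in the PPP-labelled sample, 1.77-fold higher, with a log2 difference of 0.83 (model SE 0.04). Its other probe set was dim, at 77.4 ± 4.9 (absent) and 79.8 ± 7.2 MBEI (present), and its log2 difference of -0.04 is smaller than its model error of 0.16. Only the bright probe set of DNMT3B thus reached 1.5-fold, and the dim one gave nearly equal readings.

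DNMT3A read 1631.1 ± 27.7 MBEI in the HFR-labelled sample and 1986.1 ± 85.5 MBEI in the PPP-labelled sample, a log2 difference of -0.28 (model SE 0.07). Its other probe set was called absent on both arrays, at 240.1 ± 7.3 and 174.6 ± 5.2 MBEI in the HFR-labelled and the PPP-labelled sample, a log2 difference of 0.46. A probe set absent on both arrays gives no fold, so the direction of DNMT3A rests on the first. The representing probe set carries an a suffix, and leaving such probe sets out leaves the absent one to stand for the gene.

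The LIN28 RNA binding proteins were called present on both arrays, with differences within 1.5-fold. LIN28A read 152.1 ± 6.7 MBEI in the HFR-labelled sample and 159.8 ± 9.1 MBEI in the PPP-labelled sample, a log2 difference of -0.07 (model SE 0.10). Its second probe set read 168.0 ± 7.1 MBEI in the HFR-labelled sample and 132.9 ± 6.0 MBEI in the PPP-labelled sample, 1.26-fold higher, with a log2 difference of 0.34. The direction of LIN28A thus depends on the probe set, and neither reached 1.5-fold. LIN28B, its close relative, was dim, at 41.2 ± 2.2 MBEI in the HFR-labelled sample and 34.6 ± 3.1 MBEI in the PPP-labelled sample. Its log2 difference was 0.25 with a model SE of 0.15, and it did not pass the level filter.

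The 4 members with 2 probe sets all had them on opposite sides of 0. Across the series, 56.6% of 7334 genes with several probe sets had probe sets on both sides of 0. Where several probe sets of a gene passed the level filter, that share was 36.7% of 2438 genes, and it was 3 of 3 members (SALL4, DNMT3B and LIN28A). The median gap between the lowest and highest passing probe set of a gene was 0.37 on the log2 scale, and 8.78% of genes had a gap of 2-fold or more, as SALL4 had. Control probe sets of actin had 3' to 5' signal ratios of 4.92 and 5.08 in the HFR-labelled and the PPP-labelled sample. Those of GAPDH were 1.96 and 2.79, and those of EF1A 3.03 and 3.54, in that order. The part of RNA quality in the disagreements was not tested.

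KIT, the receptor tyrosine kinase for stem cell factor, was called present in the HFR-labelled sample at 111.5 ± 5.7 MBEI and absent in the PPP-labelled sample at 23.8 ± 2.9 MBEI. By these readings as they stand it was 4.68-fold higher in the HFR-labelled sample, with a log2 difference of 2.23 (model SE 0.19). The PPP-labelled reading was not called present, and adding a constant of 36.5 MBEI to both readings brought the log2 difference to 1.30. KIT had 1 probe set, so no second reading of it was available.

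Its ligand KITLG read 150.0 ± 5.5 MBEI in the HFR-labelled sample and 93.3 ± 3.1 MBEI in the PPP-labelled sample, 1.61-fold higher. In the list of the KIT ligand, related receptors and signalling proteins, 12 of 14 genes were on the array, 7 passed the filter and 0 reached 2-fold in either direction, where 8.11% of all passing genes did. Besides KITLG, the largest differences were those of the phosphoinositide 3-kinase subunit PIK3R1 (0.95, and 0.74 with its other passing probe set), the phosphatase PTPN11 (-0.71) and the related receptor PDGFRB (-0.65). The list's median was 0.03, against -0.05 for all passing genes. Without the filter it was 0.28 over the 12 genes, against 0.05 for all genes.

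KIT is also found on blood precursors and some other cells, and marker lists of other tissues differed between the arrays. Of the extraembryonic endoderm markers, 6 of 12 passed and all 6 lay above 0, where 45.2% of all passing genes did. At 2-fold or more higher in the HFR-labelled sample were 5 of the 6, where 3.86% of all passing genes were. With no level filter the count was 5 of 12, where 2.54% of all genes were. The summed level over the 12 was 8566.1 MBEI in the HFR-labelled sample and 2122.8 MBEI in the PPP-labelled sample. Blood and endothelial markers lay the other way, with 4 of 9 on the array passing and all 4 below 0. Their summed level was 1384.0 and 3184.5 MBEI in the HFR-labelled and the PPP-labelled sample. The filter takes the brighter reading, so it can keep a gene through a single array. Without it, 12 of 12 extraembryonic endoderm and 3 of 9 blood and endothelial markers lay above 0. Of all genes 56.1% did. No marker of either list was at 0 on either array, but many were not called present. Of the 12 extraembryonic endoderm markers, 7 were called present in the HFR-labelled sample and 4 in the PPP-labelled sample. Of the 9 blood and endothelial markers, 2 and 5 were. The sums include readings not called present. APOA1 gave 4249.7 of the 8566.1 MBEI and 267.9 of the 2122.8 MBEI. TTR gave 1365.0 ± 511.7 and 102.0 ± 2.1 MBEI (marginal) in the same order. These genes were picked afterwards, for their readings. Of the neural plate and ectoderm border markers, 3 of 10 passed and all 3 lay above 0. Without the filter 8 of the 10 did. The part of these tissues in the KIT reading was not tested.

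The germ cell RNA binding proteins DAZL and DDX4 were called present on both arrays, at low levels. DDX4, an RNA helicase of germ plasm also known as vasa, read 78.3 ± 3.6 MBEI in the HFR-labelled sample and 46.3 ± 3.4 MBEI in the PPP-labelled sample, 1.69-fold higher, with a log2 difference of 0.76 (model SE 0.12). DAZL, which binds messenger RNAs in germ cells, read 47.2 ± 3.9 MBEI in the HFR-labelled sample and 28.3 ± 1.3 MBEI in the PPP-labelled sample, 1.67-fold higher, with a log2 difference of 0.74 (model SE 0.14). Both differences pointed the same way and were of nearly the same size.

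Neither gene reached 2-fold. DAZL did not pass the level filter, and DDX4 passed it through the HFR-labelled sample alone. Both values shrank when a constant of 36.5 MBEI was added before taking logs, to 0.47 for DDX4 and 0.37 for DAZL. DDX4 lies on the Z chromosome, of which male birds carry a pair and females a single copy. The 344 passing Z-linked genes had a median log2 difference of -0.09, against -0.05 for passing genes on other chromosomes. The 10 passing W-linked genes had a median of 0.09 with 5 of them above 0, where 45.2% of all passing genes were.

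**Figure D2:**
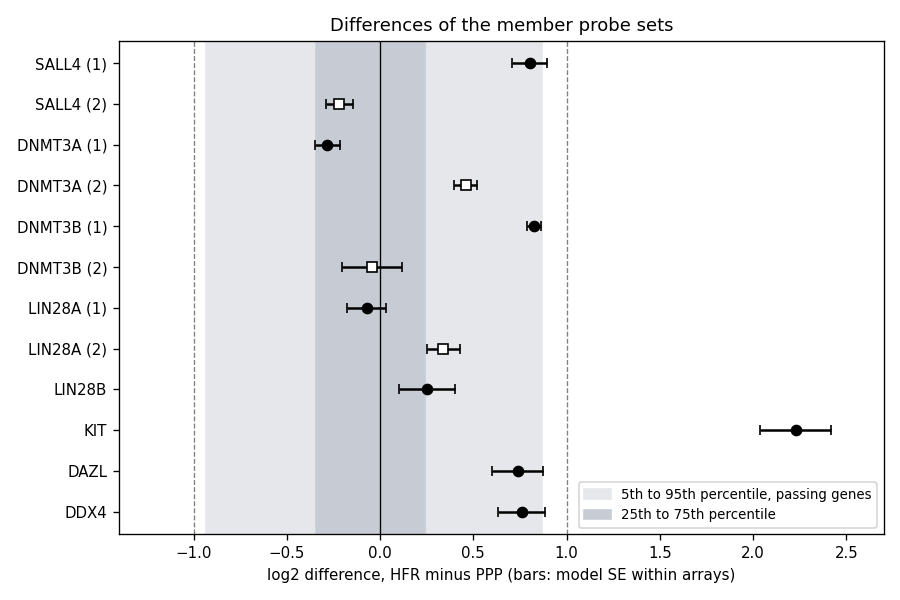
Log2 difference, HFR minus PPP, for the 12 member probe sets, with model standard errors as bars; filled circles represent a gene and open squares are its other probe set. The light band spans the 5th to 95th percentile of the 7389 passing genes, the darker band the 25th to 75th, and dashed lines mark 2-fold; KIT at 2.23 lies outside both, while DNMT3B, SALL4, DDX4 and DAZL lie between 0.74 and 0.83, inside the light band.

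The model errors are a poor yardstick for these differences. Of the 12 member probe sets 9 differed by more than 2 model standard errors, but so did 69.6% of all passing genes. The sets are unlike, as the 12 include probe sets that represent no gene or fail the filter. Model errors of the members ran between 1.68% and 8.26% of the MBEI in the HFR-labelled sample, and between 1.95% and 12.2% in the PPP-labelled sample.

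The member differences moved little under 3 of the 5 other scalings and more under an added constant or the spike-in scaling. With median centring, quantile normalization or removal of a trend on level, KIT had log2 differences of 2.16, 2.18 and 2.14, and SALL4 had 0.73, 0.80 and 0.82 with its brighter probe set. With 36.5 MBEI added to both readings before taking logs, KIT had a log2 difference of 1.30, which is still over 2-fold. With the spike-ins set equal, KIT read 3.67 and the 4 member probe sets that lie below 0 read between 1.16 and 1.40. Against the median of passing genes, KIT stood at 2.28 on both scales. That value could not change, because the spike-in scaling adds the same amount to every difference, so it is no check of KIT.

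**Figure D3:**
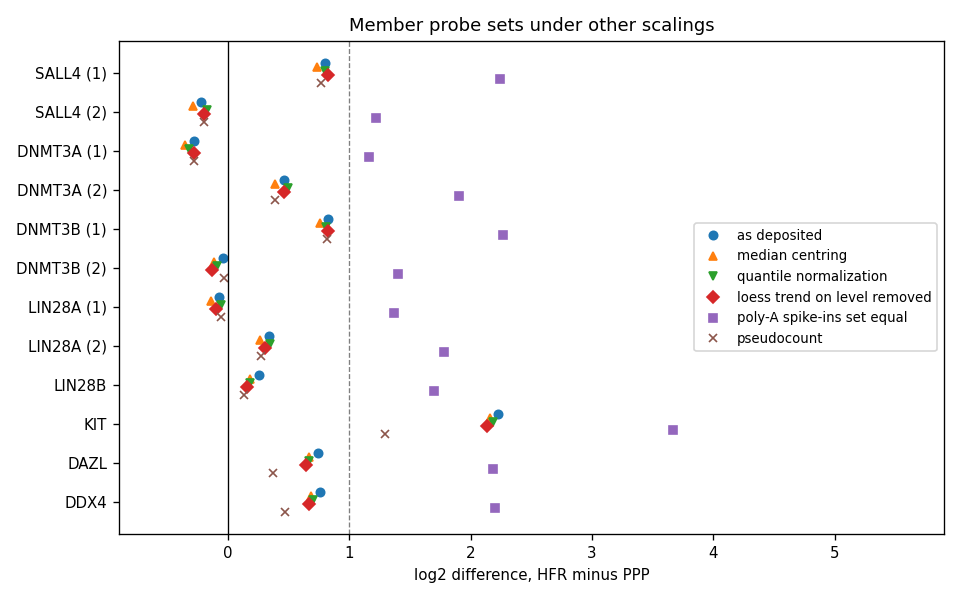
Log2 difference, HFR minus PPP, of the 12 member probe sets on the deposited scale and under 5 other scalings, each with its own symbol; (1) marks the probe set that represents a gene, and dashed lines mark 2-fold. Setting the poly-A spike-ins equal moves every probe set to between 1.16 and 3.67, while adding a constant of 36.5 MBEI lowers KIT to 1.30, DDX4 to 0.47 and DAZL to 0.37.

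Genes that work with the members were described through 5 related lists. Together 83 of 103 genes were on the array and 50 passed the filter. Of the 50, 2 were 2-fold or more higher in the HFR-labelled sample (4%) and 4 in the PPP-labelled sample (8%), where 3.86% and 4.25% of all passing genes were. Their median log2 difference was -0.11, and 19 of the 50 lay above 0, where 45.2% of all passing genes did.

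Epiblast and pluripotency partners held 4 of these 6 genes. Of 19 on the array 11 passed, and their median was -0.20. Of the 11, 1 was 2-fold or more higher in the HFR-labelled sample and 3 in the PPP-labelled sample. Of all passing genes 3.86% and 4.25% were. With no level filter the counts were 1 and 3 of 19, where 2.54% and 2.65% of all genes were. Without the filter the median was 0.15, against 0.05 for all genes. Then 11 of the 19 lay above 0, where 56.1% of all genes did. SOX3, an HMG-box factor of the epiblast and early neural plate in the chick, read 916.2 ± 75.9 MBEI in the HFR-labelled sample and 148.9 ± 3.7 MBEI in the PPP-labelled sample, 6.15-fold higher. The leukaemia inhibitory factor receptor LIFR read 303.6 ± 19.4 MBEI in the HFR-labelled sample and 1004.2 ± 13.7 MBEI in the PPP-labelled sample, 3.31-fold higher in the PPP-labelled sample. SOX2, KLF2, KLF4 and FGF4 were among 8 of the 19 genes called present on neither array. These 4 are named here by their calls rather than by the naming rule. The matching share of all genes, called present on neither array, was not counted. Called present on both were 55.4% of all genes.

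The relatives of SALL4 lay on the opposite side of 0 from its brighter probe set. SALL1 read 534.1 ± 23.3 MBEI in the HFR-labelled sample and 1648.6 ± 47.4 MBEI in the PPP-labelled sample, 3.09-fold higher in the PPP-labelled sample. Its second probe set also lay below 0, at -0.86, with 75.1 ± 17.8 (marginal) and 136.3 ± 11.6 MBEI in the HFR-labelled and the PPP-labelled sample. SALL3 read 46.3 ± 3.4 MBEI in the HFR-labelled sample and 148.0 ± 4.7 MBEI in the PPP-labelled sample, 3.20-fold higher in the PPP-labelled sample. The second SALL4 probe set, at -0.22, shares their direction but not their size. The difference between SALL4 and its relatives was not tested.

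In the DNA methylation list 12 of 13 genes on the array passed. Of the 12, 2 lay above 0, where 45.2% of all passing genes did, and 10 lay below. Within 1.5-fold lay 9, as most genes of the array did. Without a level filter, 7.54% and 8.49% of all genes were 1.5-fold or more higher in the HFR-labelled and the PPP-labelled sample. GADD45A, a stress response gene that has been linked to DNA demethylation, was 2.02-fold higher in the PPP-labelled sample, at 501.0 ± 21.6 MBEI in the HFR-labelled sample and 1010.3 ± 32.5 MBEI in the PPP-labelled sample. It fell just short of 2-fold after removal of a trend on level (-0.99) and with the added constant (-0.96), and with the spike-ins set equal it lay at 0.43. The methylcytosine dioxygenase TET2 had a log2 difference of -0.86, and UHRF1, which brings DNMT1 to newly copied DNA, of -0.62. UHRF2, a relative of UHRF1, had -0.27, and its other passing probe set 0.06. The maintenance methyltransferase DNMT1, chosen after its values were seen, read 112.2 (absent) and 115.6 MBEI (present) in the HFR-labelled and the PPP-labelled sample.

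None of the 10 passing genes of the LIN28 and let-7 list (15 on the array) reached 2-fold, where 8.11% of all passing genes did. Within 1.5-fold lay 9. Without a level filter, only 7.54% and 8.49% of all genes were 1.5-fold or more higher in the HFR-labelled and the PPP-labelled sample. DGCR8, the RNA binding partner of the microRNA processing enzyme DROSHA, had a log2 difference of -0.72 and DROSHA itself of -0.26. TUT4, a terminal uridylyltransferase that LIN28 brings to the let-7 precursor, had -0.50, and 0.30 with its other passing probe set. The RNA binding protein IGF2BP3, a let-7 target in mammals, had 0.33, and its other passing probe sets -0.04 and -0.10. The list's median was -0.12.

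Of the germ cell and piRNA list 24 genes were on the array. Of these, 14 were called present on neither array. The filter was passed by 10 of the 24, and by 7389 of all 13009 genes. The share of all genes called present on neither array was not counted, and 55.4% were called present on both. DMRT1, a Z-linked gene of testis determination in the chicken, read 229.0 ± 12.7 MBEI in the HFR-labelled sample and 78.9 ± 4.2 MBEI in the PPP-labelled sample, 2.90-fold higher. It was read by 7 probe sets, and the other 6 were absent on both arrays with log2 differences between -0.79 and 0.09. The chemokine receptor CXCR4, which guides migrating germ cells and is also found in mesoderm, read 152.4 ± 9.7 MBEI in the HFR-labelled sample and 304.3 ± 33.4 MBEI in the PPP-labelled sample, just under 2-fold higher in the PPP-labelled sample.

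GTSF1, a piRNA pathway protein, and the RNA binding protein PUM2 had log2 differences of -0.57 and -0.54. The list's median was 0.16, and 5 of its 10 passing genes lay above 0, where 45.2% of all passing genes did. DAZL and DDX4 thus stood beside a list with 1 gene at 2-fold or more, carried by 1 of its 7 probe sets.

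**Figure D4:**
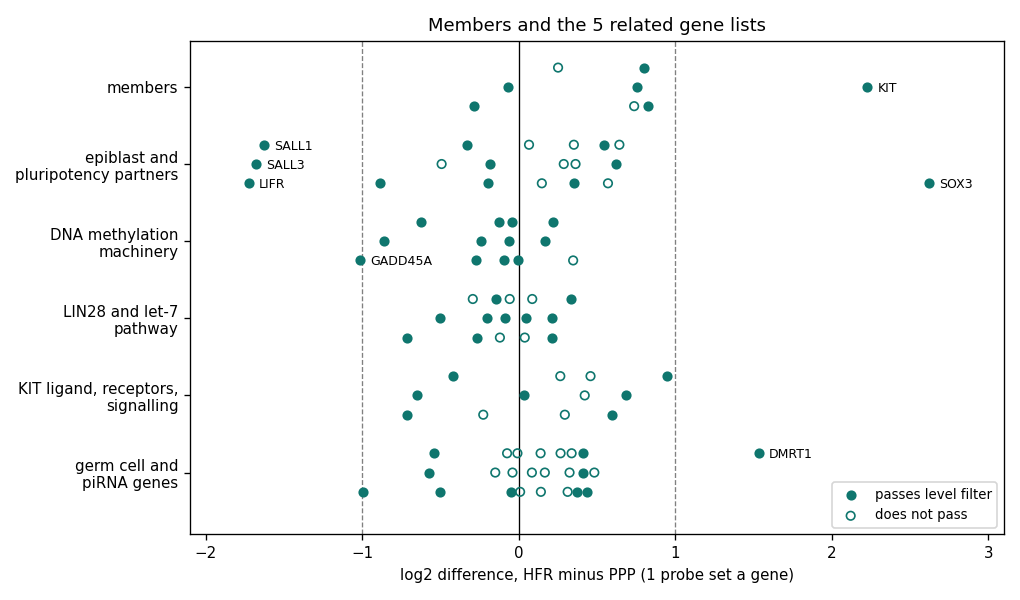
Log2 difference, HFR minus PPP, of the 8 measured members and of the genes of the 5 related lists, 1 probe set a gene; filled points passed the level filter, open points did not, vertical offsets within a row only separate points, and dashed lines mark 2-fold. KIT, SOX3 and DMRT1 lie beyond 2-fold on the HFR side, and LIFR, SALL3, SALL1 and GADD45A beyond 2-fold on the PPP side.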

How the data were processed

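The deposited intensities are MBEI, which per the series' design text the authors computed from perfect match probes of 6 arrays after invariant set normalization to the array of median brightness. Of these arrays 4 belong to another study, and their 12 columns were left aside. Per the labels' protocols, 45 ng of total RNA was amplified in 2 rounds. The submitters' processing notes name GCOS 1.3; the program behind the model and a genome build are not given in the sources used here. MBEI in the series' own value table were identical for 38535 of 38535 probe sets.

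Control and reporter probe sets (153) were set aside. Annotated symbols were brought up to date by Entrez ID against RefSeq's GRCg7b gene table, which held 26853 of the probe sets and served for names and sex chromosomes only. A single value at 0 was set to 0.1. Model errors were propagated to log2 differences. With 1 array a tissue no test was made. Members and lists were chosen with earlier results of these data known. The genes named are all members, CER1 and TBXT, and, in each related list, the 4 passing genes with the largest difference and all at 2-fold, except those marked as chosen afterwards. Markers of the neural plate and ectoderm border were also read. Of the 10, 3 passed and all 3 lay above 0, where 45.2% of all passing genes did. Without the filter 8 of 10 lay above 0, where 56.1% of all genes did. Calculations used Python 3.11.15, pandas 2.3.3 and statsmodels 0.14.6, and were tested on simulated data. The alternatives were other scalings, level filters, fold thresholds and choices of probe set.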

Additional observations from a re-analysis of the deposited data

How the results depend on the processing

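Counted over members past each filter, KIT was the 1 member at 2-fold or more in the HFR-labelled sample under 10 of 14 alternatives. The count was 0 with the stricter level filter (178.6 MBEI) and with presence required on both arrays, since KIT then drops out, 4 of the passing members at 1.5-fold, and 6 with the poly-A spike-ins set equal. The count in the PPP-labelled sample was 0 under all 14. In the related lists, 2 and 4 genes at 2-fold higher in the HFR-labelled and the PPP-labelled sample became 35 and 0 with the spike-ins set equal, 6 and 11 at 1.5-fold and 1 and 0 at 4-fold. With suffixed probe sets (s, x or a) left out, the HFR count was 1. DMRT1 then had a log2 difference of -0.0303, read by a probe set that neither array called present, and GADD45A read 0.43 with the spike-ins set equal and lost its 2-fold difference with the level trend removed (-0.99) and with 36.5 MBEI added (-0.96). The added constant lowered KIT to 1.30. SALL4 and DNMT3A read -0.22 and 0.46 without those suffixes, and with the median over passing probe sets SALL4, DNMT3B and LIN28A read 0.29, 0.39 and 0.13. No paired analysis was possible because each tissue has 1 array. Signal near background limits what can be said of KIT, LIN28B, DAZL and DDX4.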
